A study of Mus musculus with 12 samples.

Results

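Serpina3n and 6 genes of the signalling route from interleukin-6 family receptors to STAT3 (Stat3, Socs3, Osmr, Il6st, Il6ra and Lifr) were followed across 3 genotypes in whole mouse kidney. These 7 genes, of 19934 with a single gene symbol on the array, were chosen by symbol with earlier results of the same values known. Serpina3n was selected on its higher signal in mutants than in wild-type mice, so its levels and differences are given as a description, without a test. Each gene was read from its brightest probe set over all 12 arrays, and only Socs3 had a second one. The mutants had the genotype Mut-/- ;TgINS-Alb-Mut. They lacked Mut (current symbol Mmut), which encodes methylmalonyl-CoA mutase of the mitochondria, and carried a Mut transgene. That transgene uses an albumin promoter, which is active in hepatocytes. The controls were Mut+/- heterozygotes and Mut+/+ wild-type mice. Every group held 4 female mice of the C57BL/6 background fed a high-protein diet for 2 months. No source used here gives their age. The labels name the transgene for the mutants only, so its effects and those of the missing enzyme cannot be told apart. The 3 comparisons between groups share arrays and are not independent of each other.

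Cytokines of the interleukin-6 family bind a specific receptor, such as the products of Il6ra, Osmr or Lifr, which pairs with the shared signalling chain encoded by Il6st. Janus kinases on these chains then phosphorylate STAT3, which enters the nucleus and switches on genes that include Socs3, whose product blocks the receptor complex in turn. Serpina3n encodes a secreted serine protease inhibitor, the mouse counterpart of human alpha-antichymotrypsin, and is known as an acute-phase gene induced by this route together with glucocorticoids.

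The windows of 250 bases before the RefSeq start of Serpina3n and of Socs3 (build GRCm38.p6) are shown because these genes are the secreted product and the feedback inhibitor of the set, with the highest mean difference of mutants from wild type among the 7. Capitals mark matches, on either strand, to TTNNGNAA, a pattern of interleukin-6 response elements bound by C/EBP factors, and to TTCNNNGAA, the palindrome that STAT dimers recognise. No match of one overlapped a match of the other in the windows shown. The first window lies on the plus strand at chr12:104406458-104406707 and the second on the minus strand at chr11:117969367-117969616, each written 5′ to 3′ on the strand of its gene.
Serpina3n: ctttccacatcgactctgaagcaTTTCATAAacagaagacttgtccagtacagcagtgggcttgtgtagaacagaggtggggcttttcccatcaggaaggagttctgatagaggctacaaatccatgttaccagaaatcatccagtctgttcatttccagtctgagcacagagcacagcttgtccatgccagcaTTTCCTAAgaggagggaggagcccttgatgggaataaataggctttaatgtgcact
Socs3: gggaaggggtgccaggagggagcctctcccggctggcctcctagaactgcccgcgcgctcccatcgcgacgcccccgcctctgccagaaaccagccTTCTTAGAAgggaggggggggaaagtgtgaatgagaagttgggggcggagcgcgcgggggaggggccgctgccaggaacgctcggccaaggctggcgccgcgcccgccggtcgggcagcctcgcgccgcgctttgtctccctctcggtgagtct
The Serpina3n window held 2 matches to TTNNGNAA, from 227 to 220 and from 56 to 49 bases before the start, and 0 matches to TTCNNNGAA. The Socs3 window held 1 match to TTCNNNGAA, from 154 to 146 bases before the start, and 0 to TTNNGNAA. Among 8 windows of the 7 genes (Lifr has 2 starts), TTNNGNAA occurred in 3, those of Serpina3n, Stat3 and Il6ra, against 36.8% of 32851 RefSeq windows of the same length. TTCNNNGAA occurred in 1 of the 8 against 7.02% of all windows. A match describes letters in the window and was not tested as a binding site.

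The deposited values are log2 signals, and their arrays resembled each other closely, with medians from 7.17 to 7.23. Mmut, the gene that sets the genotypes apart, averaged 8.35 ± 0.12 (SD, n = 4) in mutants, 9.92 ± 0.04 in heterozygotes and 10.53 ± 0.06 in wild-type mice, with no overlap. Whether its probes lie in the disrupted part or also read the transgene was not determined. All 8 markers of proximal tubule, the main cell type of kidney cortex, read between 10.24 and 13.43 on every array. A pair of mutant arrays stood apart. Mutant replicate 3 had a mean of 9.77 over 8 adrenal steroid-synthesis markers, against 5.89 to 6.20 on the other 11 arrays. Mutant replicate 2 had a mean of 7.13 over 9 neutrophil markers, against 5.97 to 6.19 elsewhere. Results are therefore also given without these arrays where they moved.

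Serpina3n was lowest in wild-type kidneys, intermediate in heterozygotes and highest in mutants. The log2 signal of the 4 mutants was 8.51, 9.04, 9.08 and 8.41. That of the 4 heterozygotes was 7.84, 7.26, 8.14 and 7.60. The 4 wild-type mice read 6.90, 6.84, 6.48 and 6.80. No array of one genotype reached the range of another, and mutant replicates 2 and 3 were the highest of all. Group means were 8.76 ± 0.35, 7.71 ± 0.38 and 6.75 ± 0.19 (SD, n = 4 each). The mean of mutants was 4.02-fold above that of wild-type mice, a log2 difference of 2.01 (SE 0.19, 95% interval 1.60 to 2.41). Mutants lay 2.07-fold above heterozygotes (log2 difference 1.05, interval 0.65 to 1.45), and heterozygotes 1.94-fold above wild type (0.96, interval 0.55 to 1.36). An order of wild type below heterozygote below mutant with no overlap was seen for 33 of the 19934 genes, 0.166%, and the opposite order for 127, or 0.637%. In whole kidney, more RNA per cell and more cells that express a gene cannot be told apart.

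The size of the Serpina3n difference varied with the arrays that stood apart. Without mutant replicate 3 it was 1.90 against wild type and 0.94 against heterozygotes. Without mutant replicates 2 and 3 together, it was 1.70 and 0.75. The mutants that remained, replicates 1 and 4, had adrenal and neutrophil marker means within the range of the controls. Both of them lay above every heterozygote in Serpina3n. Their macrophage marker means were 7.62 and 8.13, beside 7.64 to 8.15 in heterozygotes and 7.55 to 7.79 in wild type. The part of adrenal tissue or immune cells in the Serpina3n signal was not tested.

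**Figure D1:**
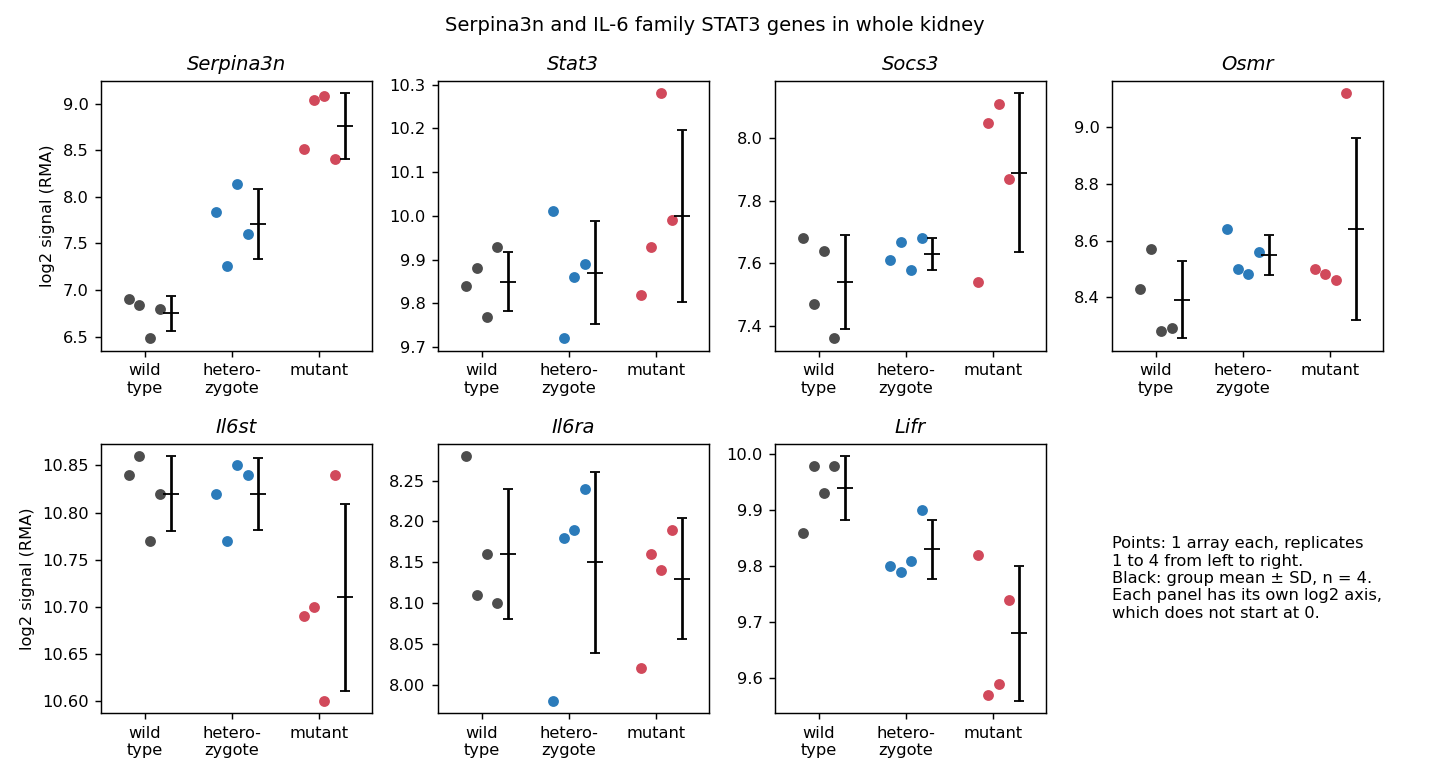
Log2 signal of the 7 genes on each of 12 arrays by genotype, with the mean and SD of each group of 4; every panel has its own axis, which does not start at 0. Serpina3n is the gene whose 3 groups lie fully apart, Lifr is lower in mutants than in wild-type mice, and Osmr has 1 high mutant at 9.12.

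Serpina3n belongs to a cluster of clade A serpin genes on chromosome 12, where copies of close sequence lie side by side. Of 10 other Serpina3 genes in that cluster, 2 had a probe set with a single symbol, Serpina3a and Serpina3b. Both are dim and neither was called, that is, neither had an adjusted p under 0.05 in limma's fit over all genes. Of these 2 genes, 0 had an unadjusted p under 0.05 in any comparison. Over all genes, 9.66% were called in mutants against wild type, 2.54% in mutants against heterozygotes and 0.135% in heterozygotes against wild type. Serpina3a read 5.59 to 5.84 in mutants and 5.58 to 5.90 in wild-type mice, a difference of -0.07 (SE 0.08, adjusted p = 0.683). Serpina3b, whose gene is next to Serpina3n among the genes on the array, read 4.73 to 5.09 and 4.85 to 5.05, a difference of -0.03 (adjusted p = 0.837). Whether the Serpina3n probes also read one of the 8 relatives without such a probe set was not tested.

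The genes around Serpina3n moved in both directions. Among 31 other genes within 1 Mb, in the gene order of GRCm38.p6, 1 was called higher and 3 lower in mutants than in wild-type mice, 12.9% of the 31 beside 9.66% of all genes. Scarna13, a small Cajal body RNA gene, was 0.29 higher (adjusted p = 0.0157). Ifi27l2b, an interferon-inducible gene, differed by -0.29 (adjusted p = 0.00672). Serpina1c, an alpha-antitrypsin gene with a dim probe set, went from 5.53, 6.00, 5.65 and 5.80 in wild type to 4.52, 4.90, 4.34 and 4.90 in mutants. Heterozygotes, at 4.81, 5.07, 4.77 and 4.81, lay with the mutants in this gene. Its difference was -1.08 in mutants (adjusted p = 0.000373) and -0.88 in heterozygotes (adjusted p = 0.0215), both against wild type; the second call ended without any 1 of 6 arrays. Serpina1f differed by -0.68 (adjusted p = 0.0231), a call that ended without any 1 of 5 arrays. Serpina1d, a near-identical relative of Serpina1c, differed by 0.67 in the opposite direction (adjusted p = 0.33), so the assignment of signal among these copies is uncertain. Against heterozygotes, 0 of the 31 neighbours were called in mutants by limma, beside 2.54% of all genes. In that comparison 2 of the 31 had an unadjusted p under 0.05. In heterozygotes against wild type 1 of the 31 was called, Serpina1c, 3.23% beside 0.135% of all genes.

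**Figure D2:**
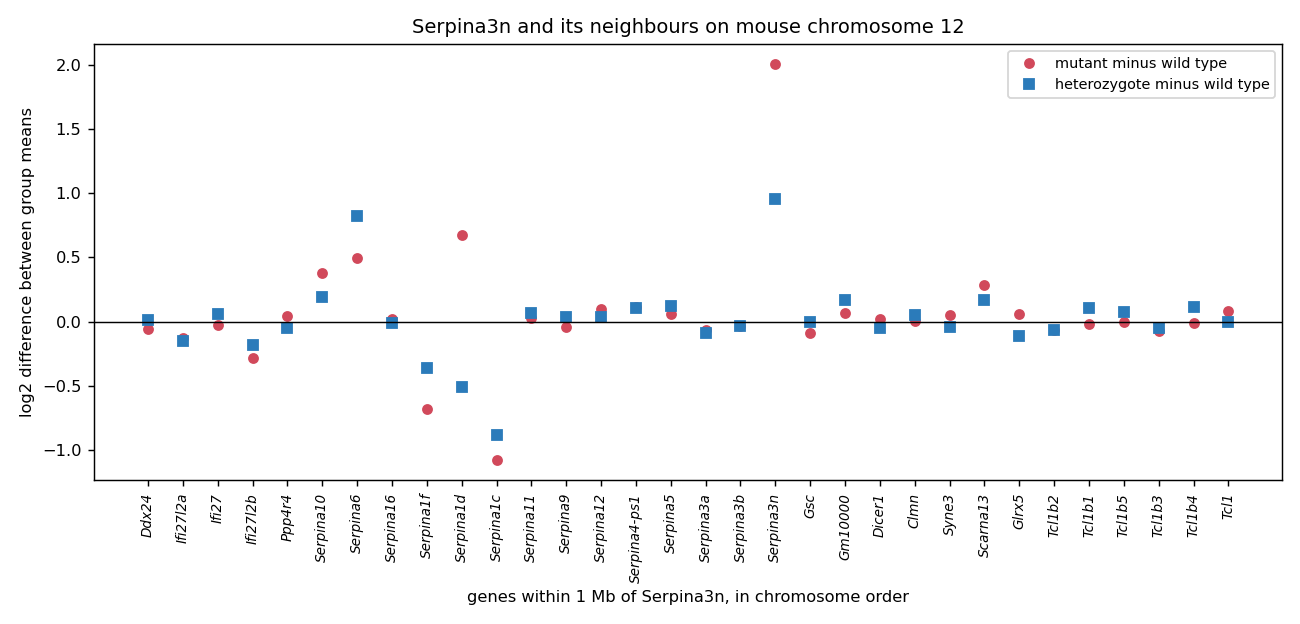
Log2 difference from wild type for Serpina3n and 31 genes within 1 Mb on chromosome 12, placed in chromosome order, for mutants (circles) and heterozygotes (squares). Serpina3n, at 2.01 and 0.96, stands above its neighbours; Serpina6 is the next in heterozygotes at 0.82 and was not called, and Serpina1c is lower in both genotypes.

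Of the 6 genes other than Serpina3n, limma called 1 in mutants against wild type, Lifr, which was lower. Of all genes tested in that comparison 9.66% were called, 2.96% as higher and 6.69% as lower. Of these 6, 0 were called in mutants against heterozygotes, where 2.54% of all genes were, and 0 in heterozygotes against wild type, where 0.135% were. At an unadjusted p under 0.05 the counts were 2, 2 and 0. Groups did not overlap for Lifr in mutants against wild type, against 14.7% of all genes, and overlapped for all 6 in the other comparisons, where 9.69% and 8.44% of all genes had groups apart.

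The receptor genes moved little, and in both directions. Lifr encodes the receptor chain for leukemia inhibitory factor, which also serves cardiotrophin and ciliary neurotrophic factor. Its log2 signal was 9.82, 9.57, 9.59 and 9.74 in mutants, 9.80, 9.79, 9.81 and 9.90 in heterozygotes, and 9.86, 9.98, 9.93 and 9.98 in wild-type mice. Every mutant lay below every wild-type mouse, while heterozygotes overlapped both groups. Lifr was 1.2-fold lower in mutants than in wild type (log2 difference -0.26, SE 0.06, interval -0.39 to -0.13, adjusted p = 0.0168). Against heterozygotes the difference was -0.15 (adjusted p = 0.251), and between heterozygotes and wild type it was -0.11 (adjusted p = 0.505). The call ended without wild-type replicate 2 (adjusted p = 0.0535) or replicate 4 (adjusted p = 0.0567), and without mutant replicates 2 and 3 the difference was -0.16 (adjusted p = 0.163). Markers of endothelial cells and podocytes moved the same way, and those of the thick limb and distal nephron did so only in part. Of 6 endothelial markers 3 were called lower in mutants against wild type, beside 6.69% of all genes, with list means of 8.96 to 9.47 in mutants, 9.47 to 9.67 in heterozygotes and 9.59 to 9.80 in wild type. Of 4 podocyte markers 2 were called lower, with means of 8.25 to 8.45 in mutants, 8.49 to 8.57 in heterozygotes and 8.52 to 8.61 in wild type. Of 6 markers of the thick limb and distal nephron 2 were called lower, with means of 11.51 to 11.84, 11.81 to 11.94 and 11.88 to 11.92. Those 2 were the distal markers Slc12a3 (-0.34) and Calb1 (-1.02). The thick limb markers Umod (-0.07) and Slc12a1 (-0.01) changed little, 2 of the 6 were higher, and the list median was -0.04. The part of these cells in the Lifr result was not tested.

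Osmr encodes the oncostatin M receptor, and its gene is next to Lifr on chromosome 15, with 0 genes of the array between them. Osmr read 8.50, 8.48, 8.46 and 9.12 in mutants, 8.64, 8.50, 8.48 and 8.56 in heterozygotes, and 8.43, 8.57, 8.28 and 8.29 in wild-type mice. Mutant replicate 4 was far above the others, and the remaining mutants lay within the range of the controls. The difference from wild type was 0.25 (SE 0.13, interval -0.02 to 0.52, adjusted p = 0.242), and it ran from 0.09 to 0.31 as single arrays were left out. Without mutant replicate 4 mutants were 0.07 below heterozygotes, a difference of -0.07 in place of 0.09.

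Il6st, the gene of the chain shared by the whole receptor family, stayed within a narrow range. It read 10.69, 10.70, 10.60 and 10.84 in mutants, 10.82, 10.77, 10.85 and 10.84 in heterozygotes, and 10.84, 10.86, 10.77 and 10.82 in wild-type mice. Apart from replicate 4, mutants lay below all controls, and the difference of -0.11 from wild type did not pass the test (SE 0.05, interval -0.23 to 0.00, adjusted p = 0.222). Il6ra, the gene of the interleukin-6 binding chain, read 8.02 to 8.19 in mutants, 7.98 to 8.24 in heterozygotes and 8.10 to 8.28 in wild-type mice. The groups overlapped throughout, and the mutant difference of -0.03 had an interval of -0.17 to 0.10 (adjusted p = 0.799).

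Stat3 itself, the transcription factor of the route, was not called in any comparison. The mutants read 9.82, 9.93, 10.28 and 9.99, the heterozygotes 10.01, 9.72, 9.86 and 9.89, and the wild-type mice 9.84, 9.88, 9.77 and 9.93. Mutant replicate 3, the array with adrenal markers, was the highest. The difference of mutants from wild type was 0.15 (SE 0.09, interval -0.04 to 0.34, adjusted p = 0.339) and 0.06 without that array (adjusted p = 0.718). Heterozygotes differed from wild type by 0.02 (adjusted p = 0.967). These are transcript levels and say nothing of the phosphorylated protein.

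Socs3, the feedback inhibitor, was higher in 3 of 4 mutants. It read 7.54, 8.05, 8.11 and 7.87 in mutants, 7.61, 7.67, 7.58 and 7.68 in heterozygotes, and 7.68, 7.47, 7.64 and 7.36 in wild-type mice. Mutant replicates 2, 3 and 4 lay above all 8 controls, while replicate 1 lay among them. The difference from wild type was 0.35 (SE 0.11, interval 0.12 to 0.58, 1.28-fold) and just missed the threshold (adjusted p = 0.0531). It passed without mutant replicate 1, at 0.47 (adjusted p = 0.00449), and without wild-type replicate 1, at 0.40 (adjusted p = 0.0472). Without mutant replicates 2 and 3 it was 0.17 (adjusted p = 0.405). Against heterozygotes it was 0.26 (interval 0.03 to 0.49, adjusted p = 0.25), and 0.38 without mutant replicate 1 (adjusted p = 0.0323). The second, dimmer probe set of Socs3 did not show the difference. Its group means were 6.81 in mutants, 6.92 in heterozygotes and 6.80 in wild type, with a mutant difference of 0.02 (SE 0.08, adjusted p = 0.919 over 21785 probe sets). In that limma fit over probe sets the brighter Socs3 probe set, at 0.35, lay just under the threshold (adjusted p = 0.0494).

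**Figure D3:**
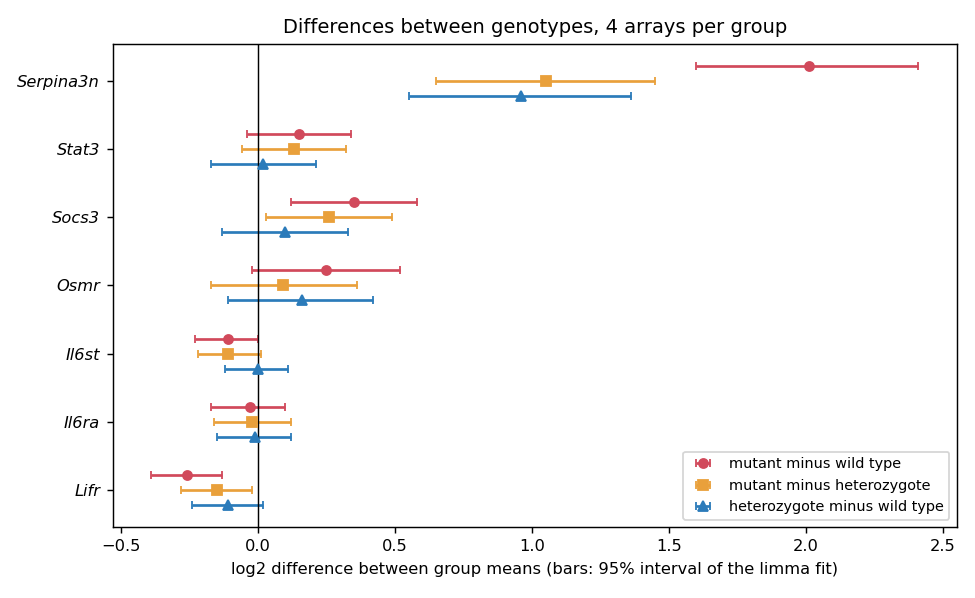
Log2 difference between group means for the 7 genes in 3 comparisons, with 95% intervals from the limma fit of 12 arrays. Serpina3n, at 2.01, 1.05 and 0.96, was selected on its mutant difference, so its points and intervals are a description without a test. The Lifr interval lies left of 0 for mutants minus wild type, and the intervals of Stat3 and Il6ra span 0 throughout.

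**Figure D4:**
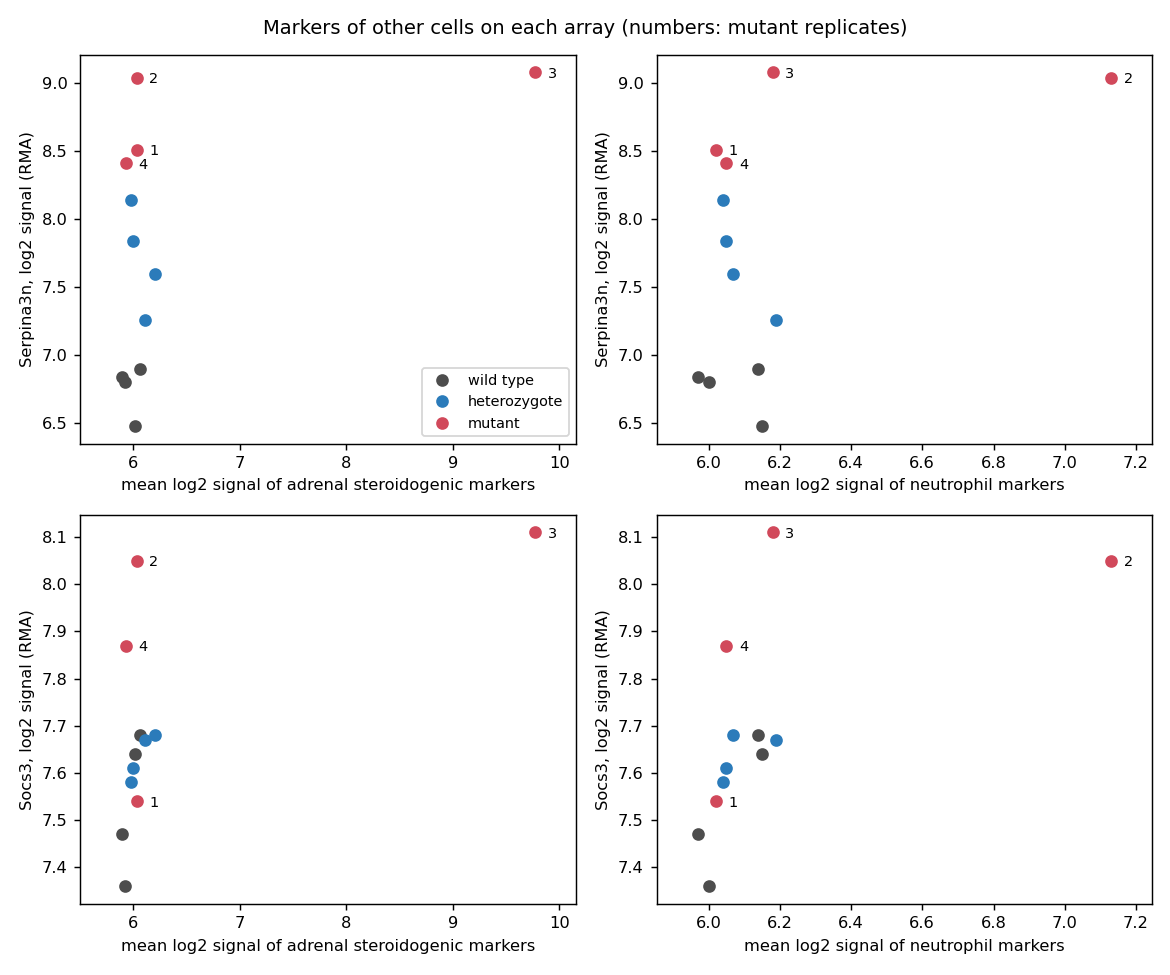
Serpina3n (upper panels) and Socs3 (lower panels) log2 signal against the mean log2 signal of adrenal or neutrophil markers on each array, with mutant replicates numbered. Mutants 3 and 2 stand alone on the marker axes at 9.77 and 7.13, and they also have the highest Serpina3n and Socs3 signals. Mutants 1 and 4 lie within the range of the controls on the marker axes and above the controls in Serpina3n. The part of these cells in either gene's signal was not tested.

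Over 6 lists that cover the rest of the route, 99 of 107 genes were measured. In mutants against wild type 5 were called higher and 4 lower, 9.09% of the 99 against the background of 9.66%, with a median difference of 0.04 against 0.0044 over all genes. In mutants against heterozygotes 2 were called higher (Lcn2 and Myc) and 3 lower (Jak2, Bcl2 and Zeb1), 5.05% of the 99 beside 2.54% of all genes. The call of Lcn2 in that comparison ended without any 1 of 7 arrays, that of Jak2 without any 1 of 3, and those of Bcl2 and Zeb1 without either of 2, while that of Myc held without each single array. In heterozygotes against wild type limma called 0 of the 99, beside 0.135% of all genes. Its smallest adjusted p was 0.0796, and 10 of the 99 had an unadjusted p under 0.05.

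No ligand gene differed by more than 0.18 between mutants and wild-type mice. Of 9 measured, 0 were called in mutants by limma, beside 9.66% of all genes. None of the 9 had an unadjusted p under 0.05, and their median difference was 0.10. Il6 read 3.69, 4.15, 3.75 and 3.71 in mutants and 3.51 to 3.75 in wild-type mice. Only replicate 2, the array with neutrophil markers, stood out, and the difference of 0.17 did not pass (adjusted p = 0.277). Other receptors numbered 9, with a median of -0.02 and 1 call, 11.1% of the list beside 9.66% of all genes. Egfr, the epidermal growth factor receptor gene, read 9.51, 9.56, 9.55 and 9.22 in mutants and 9.61 to 9.83 in wild type. It fell by 0.27 on the log2 scale (SE 0.07, adjusted p = 0.0369), a call that ended without any 1 of 6 arrays.

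Of 8 kinases and other STAT genes, 1 was called in mutants against wild type, 12.5% of the list beside 9.66% of all genes. Jak2, one of the Janus kinases that bind the receptor chains, read 8.52, 8.51, 8.46 and 8.55 in mutants, against 8.67 to 8.90 in heterozygotes and 8.75 to 8.93 in wild-type mice. All mutants lay below all controls. Jak2 fell by 0.33 on the log2 scale against wild type (SE 0.06, adjusted p = 0.00326); against heterozygotes the difference was -0.29 (adjusted p = 0.0191), and without mutant replicates 2 and 3 it was -0.31 (adjusted p = 0.0284) and -0.26 (adjusted p = 0.1). The second of these calls also ended without heterozygote replicate 1, 3 or 4. Stat5a and Stat5b, which lie beside Stat3 on chromosome 11, differed by -0.04 (adjusted p = 0.808) and -0.03 (adjusted p = 0.849). Of 16 inhibitors other than Socs3, limma called 0, beside 9.66% of all genes, and 1 inhibitor had an unadjusted p under 0.05. That gene was Pias4, which encodes an inhibitor that attaches SUMO to STAT proteins, with a difference of -0.14 (adjusted p = 0.113).

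Among 31 acute-phase genes, limma called 2 higher in mutants than in wild type and 0 lower, 6.45% of the list. Of all genes 9.66% were called in that comparison, 2.96% as higher and 6.69% as lower. An unadjusted p under 0.05 was seen for 7 of the 31 in either direction. Of the 31 differences 24 were above 0, and the median was 0.08. Lcn2, the gene of an iron-chelating lipocalin, read 8.35, 11.29, 11.33 and 9.69 in mutants, 7.76 to 8.31 in heterozygotes and 7.01 to 7.38 in wild type. Mutant replicates 2 and 3 were the highest, as for Serpina3n, and the lowest mutant almost met the highest heterozygote. Its difference from wild type was 2.95 (adjusted p = 0.00272) and 1.81 without these 2 arrays (adjusted p = 0.00279). Lrg1, which encodes a leucine-rich secreted glycoprotein, read 7.14, 7.95, 7.98 and 7.27 in mutants, 6.96 to 7.11 in heterozygotes and 6.97 to 7.06 in wild type. Every mutant lay above every control. It rose by 0.57 (SE 0.15, adjusted p = 0.0347), a call that ended without any 1 of 6 arrays, and was 0.19 without mutant replicates 2 and 3 (adjusted p = 0.11). The fibrinogen chain gene Fgb (difference 0.08, adjusted p = 0.913) and the ceruloplasmin gene Cp (0.05, adjusted p = 0.851) were not called. Larger differences that were not called were those of Timp1 (0.94, adjusted p = 0.0923), Pigr (0.77, adjusted p = 0.0907) and Fgg, another fibrinogen chain (0.59, adjusted p = 0.209). Every mutant lay above every wild-type mouse in Timp1 and Pigr, and mutant replicate 2 was the highest in both. Saa3, of serum amyloid A, read 10.04 in mutant replicate 2 and 8.24 in heterozygote replicate 4, and the haptoglobin gene Hp read 9.82 in mutant replicate 2. Neither Saa3 nor Hp was called (adjusted p = 0.43 and 0.594). The uncalled acute-phase genes named here were chosen after their values were seen.

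STAT3-linked target genes gave 3 higher and 2 lower calls of 26 in mutants against wild type, with a median of 0.04. That was 19.2% of the list beside 9.66% of all genes. Against heterozygotes 11.5% of the list was called, 1 gene higher and 2 lower, beside 2.54% of all genes. Myc, a transcription factor of cell growth, read 8.71, 8.01, 8.23 and 8.33 in mutants, 7.35 to 7.57 in heterozygotes and 7.26 to 7.56 in wild type. Its order among mutants was not that of Serpina3n, since replicate 1 was highest and replicate 2 lowest. The rise was 0.88 (SE 0.12, adjusted p = 0.000807) and 1.08 without mutant replicates 2 and 3. Il4ra, a chain of the interleukin-4 receptor, rose by 0.37 (adjusted p = 0.0142), and Bcl3, a nuclear partner of NF-kappa-B, by 0.36 (adjusted p = 0.0081). Without mutant replicates 2 and 3 these were 0.21 (adjusted p = 0.0811) and 0.29 (adjusted p = 0.0702). Zeb1, a repressor of epithelial genes, fell by 0.35 on the log2 scale (adjusted p = 0.00248). Bcl2, an inhibitor of cell death that the naming rule did not pick, fell by 0.32 on the log2 scale (adjusted p = 0.0166), a call that ended without wild-type replicate 4 (adjusted p = 0.0611) or mutant replicates 2 and 3 (adjusted p = 0.0796).

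Markers of macrophages were mostly higher in mutants than in wild-type mice, 7 of 8, with a median difference of 0.34. Of 8, 2 were called higher (Cd68 and Lyz2) and 1 lower (Csf1r), 37.5% of the list beside 9.66% of all genes. These calls ended without any 1 of 6, 5 and 2 arrays. List means ran from 7.62 to 8.50 in mutants, 7.64 to 8.15 in heterozygotes and 7.55 to 7.79 in wild type. Of 9 neutrophil markers 0 were called by limma, beside 9.66% of all genes. None of the 9 had an unadjusted p under 0.05, and list means were 6.02 to 7.13 in mutants. The highest macrophage and neutrophil means were both in mutant replicate 2. The part of these cells in the results was not tested.

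**Figure D5:**
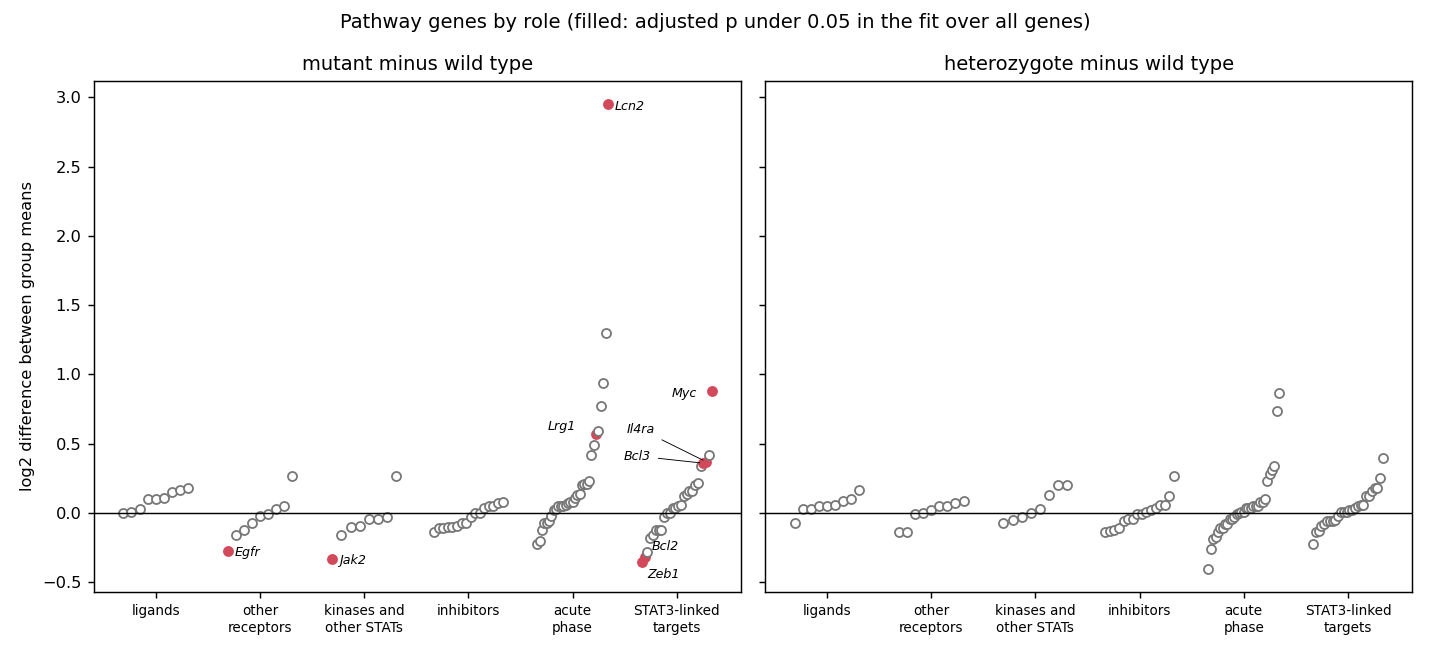
Log2 difference from wild type of the 99 measured genes in 6 lists by role, sorted within each list, for mutants (left) and heterozygotes (right); filled points passed the limma test over all genes. Of the mutant points 5 higher and 4 lower are filled and named, and 0 of the heterozygote points are.

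The genes whose pattern over the 12 arrays was most like that of Serpina3n belonged to the translation machinery. Among 14910 ranked genes the 5 with the highest Pearson correlation were Eef2 (r = 0.976), Rpl10 (0.965), Rpl7 (0.96), Rps12 (0.959) and Eef1a1 (0.952). Eef2 and Eef1a1 encode elongation factors and the others ribosomal proteins. All 12 arrays enter each value, so it holds the differences between genotypes. Over deviations from the group means the same values were 0.775, 0.783, 0.873, 0.577 and 0.608. These 5 genes were picked on the same 12 arrays, so both sets of values only describe them. Their mutant differences were far smaller than that of Serpina3n, at 0.25, 0.32, 0.62, 0.99 and 0.22. Rps12 read 9.70 to 9.93 in wild type, 10.08 to 10.28 in heterozygotes and 10.65 to 10.92 in mutants. Eef2 read 12.72 to 12.78, 12.84 to 12.89 and 12.96 to 13.07 in the same order. The groups of Rps12 and Eef2 thus lay apart as those of Serpina3n did. Heterozygotes and wild type did not lie apart in Rpl10, Rpl7 or Eef1a1. Ribosomal protein genes have many processed copies in the genome, so which copies their probe sets read is uncertain.

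For Lifr, the only other gene of the 7 with groups that did not all overlap, the 3 most alike were Cnep1r1 (r = 0.962), Senp5 (0.962) and Lrrc8b (0.955). Over deviations from the group means these were 0.875, 0.913 and 0.898; the genes were picked on the same 12 arrays, so both sets of values only describe them. Cnep1r1 encodes a regulatory subunit of a nuclear envelope phosphatase, Senp5 a SUMO protease and Lrrc8b a subunit of volume-regulated anion channels. Their mutant differences were -0.20, -0.24 and -0.49, beside -0.26 for Lifr.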

How the data were processed

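Total RNA of whole kidney was hybridised to Affymetrix mouse gene arrays, 1 per mouse; per the labels, the descriptions name a mouse array and the labelling text a human one, and the probe sets matched mouse genes. The authors deposited log2 values; the submitters' processing notes name RMA and Affymetrix Expression Console 1.2.1. RMA equalises array distributions and compresses differences near background. Sample numbers run by group, so processing order, if they give it, cannot be told apart from genotype. Probe sets with 1 gene symbol (21785 of 35552) gave 19934 genes by the highest mean. A limma 3.58.1 fit (R 4.3.3) of 3 groups gave differences and Benjamini-Hochberg p-values over all genes, called under 0.05; it was tested on simulated data. Such p-values reflect the spread among mice, and 4 arrays per group limit the precision. Members and lists were chosen with earlier results of these data known. Named genes were the 7, up to 4 called genes per list by size (or the smallest p), the Serpina3 genes, and the 5 most alike to Serpina3n and 3 to Lifr with a group mean of at least 6. Of 12 pairs of samples with the same replicate number, correlations ran from -0.239 to 0.168, so the numbers were not taken as pairs. Promoters were RefSeq's, GRCm38.p6. Figures used Python 3.11.15 and matplotlib 3.10.9.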

Additional observations from a re-analysis of the deposited data

Results flagged for a closer look

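Single arrays far from the rest of their group of 4 were looked for in 39 genes, 117 groups in all, by the gap to the nearest array over the range of the group. Chance flags about 1 in 20 groups, but some of these genes (Saa3, Hp, S100a8, Cyp11b1 and Star) were picked after their single high arrays had been seen, so nothing is read from the number of values that passed, 16. Among the 7 genes only Osmr did, with mutant replicate 4 at 9.12 against 8.46 to 8.50. Of the pathway genes, Il6 was 4.15 in mutant replicate 2 against 3.69 to 3.75, Egfr was 9.22 in mutant replicate 4 against 9.51 to 9.56, and Myc was 7.57 in heterozygote replicate 3 against 7.35 to 7.38. Saa3 was 10.04 in mutant replicate 2 against 5.32 to 5.36, and 8.24 in heterozygote replicate 4 against 5.28 to 5.43. Hp was 9.82 in mutant replicate 2 against 6.92 to 7.14. Of the marker genes, S100a8 of neutrophils was 8.57 in mutant replicate 2 against 5.12 to 5.56, and Cyp11b1 and Star of the adrenal cortex were 12.65 and 11.99 in mutant replicate 3 against 5.79 to 5.96 and 6.64 to 6.91. Of the serpins and neighbours, Serpina3a was 5.58 in wild-type replicate 2 against 5.86 to 5.90, Serpina1c was 5.07 in heterozygote replicate 2 against 4.77 to 4.81, Serpina1f was 11.16 in heterozygote replicate 1 against 11.73 to 11.82, and Ifi27l2b was 7.63 in heterozygote replicate 3 against 7.74 to 7.76. Of the genes most alike to Serpina3n or Lifr, Rpl7 was 9.67 in heterozygote replicate 2 against 9.83 to 9.84, and Senp5 was 8.70 in heterozygote replicate 4 against 8.62 to 8.63.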

How the results depend on the processing

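The fit was repeated with a replicate block, without single arrays, over genes reaching a mean of 6 in some group, on averaged probe sets, on only the groups compared, after quantile normalisation or median centring, with array weights, and with a trended, robust variance prior. A fit without mutant replicates 2 and 3 and the dimmer Socs3 probe set were added after seeing the data. Counts of the 7 below include Serpina3n, which was chosen for its difference, so nothing is read from its part in them. Leaving out these 2 mutants moved the calls against wild type from 1925 to 1075 of all genes and from 2 to 1 of the 7, and against heterozygotes from 1 to 0 of the 7 and from 5 to 2 pathway genes. With only the 2 groups compared, calls for mutants against wild type were 1154 genes and 1 of the 7. Those against heterozygotes went from 506 to 191 genes, 0 of the 7 and 1 pathway gene. For heterozygotes against wild type, 27 genes became 78, with 1 of the 7 and 2 pathway genes in place of 0. That comparison gave 163 genes, 1 of the 7 and 1 pathway gene with array weights, 42 genes with the trended prior and 7 with the replicate block. The block changed no other count by over 1.5 times, with 1552 and 405 genes, and 0 of 12 samples correlated best with their own number. Leaving out single arrays gave 1019 to 1928, 229 to 592 and 5 to 67 genes for mutants against wild type, mutants against heterozygotes and heterozygotes against wild type. It gave 1 to 3, 1 to 2 and 0 to 1 of the 7, and 7 to 12, 1 to 8 and 0 to 0 pathway genes. The cause of these changes was not tested.

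The Serpina3n difference ran from 1.90 to 2.12, 0.90 to 1.2 and 0.81 to 1.11 for these comparisons as single arrays were left out. Its 3 groups did not overlap, so leaving out arrays could not turn its direction, and nothing is read from that direction. Lifr was lower in mutants than in wild type throughout, from -0.31 to -0.22 over single arrays, but was not called with only those 2 groups (adjusted p = 0.0508). Socs3 passed over genes reaching a mean of 6 (adjusted p = 0.0446), quantile normalisation (0.0468), centred medians (0.0441) and the trended prior (0.0447). The sign of Socs3 against heterozygotes turned from 0.26 to -0.11 with the dimmer probe set. Among differences near 0, signs turned for Il6st in heterozygotes against wild type with quantile normalisation (0.03) and array weights (0.01). Over single arrays the same held for Il6st in that comparison (-0.02 to 0.01), Stat3 in it (-0.03 to 0.07), Osmr against heterozygotes (-0.07 to 0.15) and Serpina3b in mutants against wild type (-0.09 to 0.03). Il6ra turned in all 3 comparisons, at -0.06 to 0.00, -0.07 to 0.01 and -0.04 to 0.04. Precision is limited by 4 arrays per group, and values of dim probe sets such as those of Il6, Serpina3a and Serpina3b lie near background, where RMA compresses differences.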
